A study of Mus musculus with 6 samples.

Results

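The junction genes described here are 9 genes whose proteins join endothelial cells to each other: Cldn5, Ocln, Tjp1, F11r, Jam2, Jam3, Cdh5, Esam and Pecam1. They were found as the probe sets whose single gene symbol in the platform annotation was one of these names, which gave 15 of the 22626 probe sets on the array. All 9 genes were on the array, and 9 probe sets of 8 genes were above the limit used for testing. The limit applied to the mean of the log2 values over the arrays, and it corresponds to a signal of 40.7. Cldn5 was chosen by its array signal, which was higher on high fat diet in this same comparison, and the other 8 genes were chosen by name with these results known, and the Cldn5 difference is therefore described with no test.

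The study compared aortas of C57BL/6J mice, an inbred strain that becomes obese on fat-rich food, after a high fat diet or regular chow, on 6 Affymetrix mouse arrays, 3 per diet. For 1 array, RNA of 3 aortas was mixed, and these were stated to be without their outer coat and surrounding fat. The 3 pools of a diet were stated to be separate, so n = 3 per diet, and every p-value here reflects variation among pools. High fat feeding went on for 16 to 18 weeks, from an age of 10 weeks for high fat replicates 2 and 3. High fat replicate 1 was labelled as 16 to 20 weeks old, with no sex. That age leaves little time before the stated length of feeding, so it may not be the age at collection. The other mice were males. Chow replicates 2 and 3 were 26 to 28 weeks old, and the age of chow replicate 1 was not labelled. Whether the diets differed in age cannot be told from the labels of the arrays numbered 1.

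Endothelial cells line the aorta as a single layer, and their contacts set what passes from blood into the wall. Tight junctions are built from claudins, which are membrane proteins that seal the gap between cells, with occludin and the junctional adhesion molecules beside them, and zonula occludens scaffold proteins tie them to actin. Adherens junctions are built from the cadherin of endothelium, held to actin by catenins. Claudin 5 is the main claudin of endothelium and is best known from the blood-brain barrier.

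The aortic samples were checked against marker genes. All 10 smooth muscle markers and 20 of 21 endothelial markers on the array passed the limit on low signals. So did 7 of 8 brown adipocyte and 13 of 14 cardiac muscle markers. Of all 22626 probe sets, 13575 passed, and a gene counted as passing if any of its probe sets did. The limit is a percentile of the signals and no detection threshold, so these counts alone do not show that a marker was expressed. The arrays had medians of 58.4 to 66.6. Although surrounding fat was stated to be removed, 2 fat cell genes were far above these medians on both diets. Ucp1 had 3480.4 ± 283.2 on high fat diet and 2479.2 ± 316.6 on chow. Adipoq had 1862.3 ± 41.1 and 1793.9 ± 344.5. The samples thus held RNA of fat cells, and the part of vessels within fat in the endothelial signals was not tested. Without detection calls, signals under the limit could not be separated from background.

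Cldn5 had a higher signal in every high fat pool than in every chow pool. Its probe set, 1417839_at, had signals of 249.8, 252.9 and 270.9 on high fat diet and of 124.5, 147.7 and 124.3 on chow, given here and below in the order of replicates 1, 2 and 3. The means were 257.9 ± 11.4 on high fat diet and 132.2 ± 13.5 on chow (SD, n = 3 each). The gap between the diets is a description only, since Cldn5 was chosen for it on these same arrays. On the log2(signal + 6) scale, which understates the change of low signals, the difference was 0.94 ± 0.15 (SE), a fold of 1.91. It lay between 0.90 and 1.02 when each array was left out in turn, and between 0.87 and 0.96 under the other settings tried.

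The 250 bases before the starts of Cldn5 and Tjp1 are shown because these 2 genes had means that differed in opposite directions between the diets. Both windows are from RefSeq on GRCm38.p6, whose promoter table held 5 windows for 4 of the 9 genes. The Cldn5 window is chr16:18776597-18776846 on the plus strand and the Tjp1 window is chr7:65371245-65371494 on the minus strand. Capitals mark CCAAT and GGGCGG, searched on both strands.
Cldn5: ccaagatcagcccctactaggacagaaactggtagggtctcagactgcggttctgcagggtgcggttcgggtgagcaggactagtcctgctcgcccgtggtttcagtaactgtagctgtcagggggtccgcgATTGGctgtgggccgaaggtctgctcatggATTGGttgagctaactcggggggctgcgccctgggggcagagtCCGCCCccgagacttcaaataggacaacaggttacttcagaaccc
Tjp1: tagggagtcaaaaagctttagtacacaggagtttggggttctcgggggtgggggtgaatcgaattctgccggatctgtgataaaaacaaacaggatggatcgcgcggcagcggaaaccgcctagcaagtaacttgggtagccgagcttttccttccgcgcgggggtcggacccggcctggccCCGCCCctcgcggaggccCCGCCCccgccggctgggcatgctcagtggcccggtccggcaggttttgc
The Cldn5 window held CCAAT 2 times and GGGCGG 1 time, and the Tjp1 window held GGGCGG 2 times and CCAAT 0 times. TATAAA was found in neither. Of the windows not shown, that of F11r, for which the diets overlapped, held CCAAT 3 times and GGGCGG 1 time. Those of Ocln held CCAAT 0 and 1 times and GGGCGG 1 time each. Of 32851 windows of the same length, 33.8% held CCAAT, 32.7% held GGGCGG and 12.4% held TATAAA. Bases G and C made up 59.6% of the Cldn5 window and 63.2% of the Tjp1 window, where the median window had 52.4%. A match of letters is a description of the sequence, and the array does not measure what binds there.

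**Figure D1:**
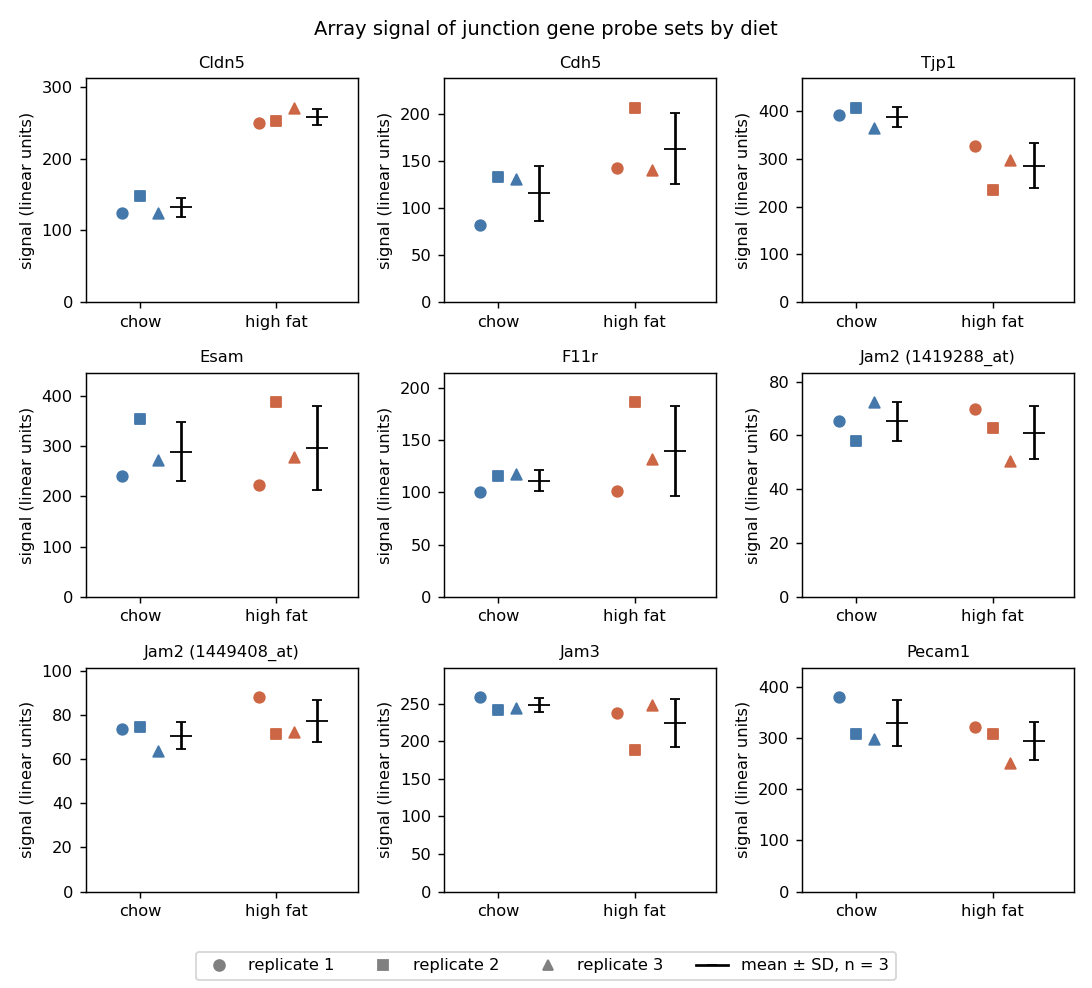
Array signal on a linear scale for the 9 junction gene probe sets above the limit on low signals, by diet; each point is 1 pool of 3 aortas, the shape gives the replicate number, and the bar is the mean ± SD (n = 3). Cldn5 lay between 249.8 and 270.9 on high fat diet and between 124.3 and 147.7 on chow, and Tjp1 lay lower on high fat diet.

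Tjp1 encodes zonula occludens 1, the scaffold to which claudins bind through their tails. Its probe set had signals of 325.7, 234.6 and 296.6 on high fat diet and of 391.9, 407 and 364.7 on chow. Every high fat pool was lower than every chow pool, and the lowest was high fat replicate 2. The means were 285.6 ± 46.5 and 387.9 ± 21.4, with a log2 fold change of -0.44 ± 0.16 (95% interval -0.80 to -0.09, unadjusted p = 0.0182). It did not pass the adjustment over the whole table (limma, adjusted p = 0.594). Without high fat replicate 2 the log2 fold change was -0.31, and without high fat replicate 1 it was -0.54. This probe set carries the suffix _a_at, which marks one that recognises several transcripts of a gene.

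Ocln encodes occludin, a membrane protein of tight junctions that is abundant in epithelium. Its only probe set had signals of 16.6, 16.7 and 10.3 on high fat diet and of 10.9, 12.8 and 9.3 on chow. These lie under the limit of 40.7 and could not be separated from background, so that no fold is given.

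Of the junctional adhesion molecules, which are immunoglobulin proteins at the cell border, F11r, also called JAM-A, had signals of 101.1, 186.4 and 131.6 on high fat diet and of 100.1, 116.2 and 117.8 on chow. The diets overlapped, and high fat replicate 2 was the highest array. The log2 fold change of 0.27 ± 0.22 (95% interval -0.21 to 0.76) became 0.05 without high fat replicate 2. Its other probe set had means of 26.7 and 28.3, under the limit.

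Jam2 had 4 probe sets, of which 1419288_at and 1449408_at passed the limit. The first had 69.9, 62.9 and 50.3 on high fat diet and 65.4, 57.9 and 72.3 on chow, with a log2 fold change of -0.09 ± 0.21 (95% interval -0.55 to 0.36). The other had 88.2, 71.5 and 72.2 against 73.6, 74.8 and 63.5, with a log2 fold change of 0.12 ± 0.19 (95% interval -0.30 to 0.53). Their means thus differed in opposite directions, each by less than its standard error. The remaining Jam2 probe sets had signals from 1.4 to 16.3.

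Jam3 had 237.5, 188.7 and 248.4 on high fat diet and 259.1, 242 and 244 on chow by the probe set above the limit. The diets overlapped, with a log2 fold change of -0.15 ± 0.16 (95% interval -0.50 to 0.20), which was -0.03 without high fat replicate 2, the lowest array. Its other probe set had means of 34.6 and 33.6, under the limit.

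Cdh5 encodes VE-cadherin, the adhesion protein of endothelial adherens junctions. Its probe set 1433956_at had signals of 142.3, 206.6 and 140.1 on high fat diet and of 82.1, 133.2 and 131.2 on chow. The diets did not overlap, but high fat replicate 3 lay just above chow replicates 2 and 3, and chow replicate 1 was well below the rest. The means were 163.0 ± 37.8 and 115.5 ± 28.9, with a log2 fold change of 0.48 ± 0.23 (95% interval -0.02 to 0.99), which did not pass (limma, unadjusted p = 0.0577, adjusted p = 0.725). Without chow replicate 1 the log2 fold change was 0.27, and without high fat replicate 2 it was 0.31. A further Cdh5 probe set, 1422047_at, had means of 28.7 and 29.5, under the limit.

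Esam and Pecam1 encode adhesion molecules of the endothelial border that platelets carry too, and Pecam1, also called CD31, is a common marker of endothelium and is found on leukocytes. Esam had 223.1, 387.1 and 278.8 on high fat diet and 240.3, 353.7 and 271.6 on chow. Replicates numbered 2 were the highest of both diets, and the spread within a diet was far larger than the log2 fold change of 0.02 ± 0.22 (95% interval -0.46 to 0.50). Pecam1 had 320.4, 308.4 and 251.5 on high fat diet and 379.9, 307.3 and 298.5 on chow. The diets overlapped, with a log2 fold change of -0.16 ± 0.16 (95% interval -0.52 to 0.20).

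Leaving out Cldn5, none of the 8 other probe sets passed limma's test at an adjusted p of 0.05, where 0.0737% of the 13575 probe sets tested did (10 probe sets), and 1 of the 8, Tjp1, had an unadjusted p under 0.05, as 7.03% of all tested did. Means were higher on high fat diet for 4 and lower for 4. The diets did not overlap for 2 of the 8, Cdh5 above and Tjp1 below, where 12.3% of all tested did not overlap, 6.26% with high fat above and 6.08% with high fat below chow. With 1 probe set for each of the 7 genes, the median log2 fold change was 0.02, against -0.01 over all probe sets tested. Adjusted p-values of the 8 lay between 0.594 and 0.988. The 95% intervals allow log2 fold changes as large as -0.80 for Tjp1 and 0.99 for Cdh5, so that a p above the threshold does not show equal levels.

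**Figure D2:**
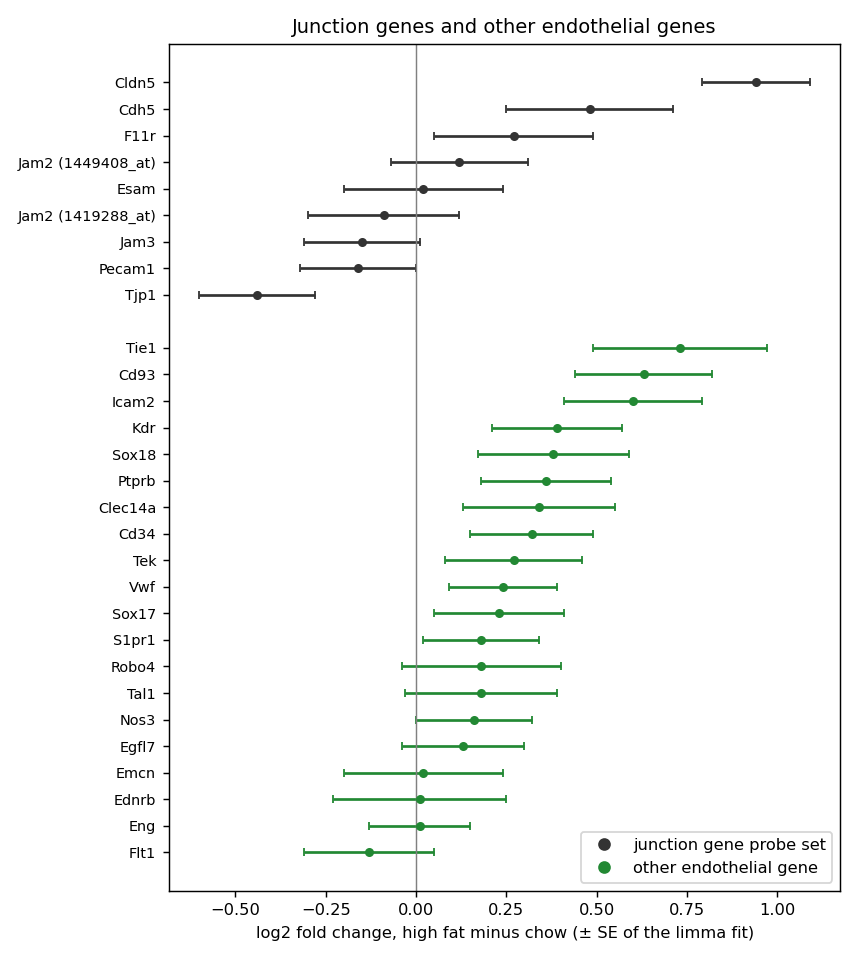
Log2 fold change of high fat minus chow with the standard error of the limma fit, for the junction gene probe sets (dark) and for 20 other endothelial genes (green). Cldn5 stood at 0.94 and Tjp1 at -0.44, while Tie1, at 0.73, was the highest of the other endothelial genes.

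Other genes that mark endothelium and are not among the 9 were set beside them. Of 20 with a probe set above the limit, 19 had higher means on high fat diet, where 48.2% of all probe sets did, and the median log2 fold change was 0.24. Of the 20, none passed limma's adjustment, while 3 were under 0.05 before it, where 7.03% of all probe sets were. These were Cd93, a lectin-like receptor, at 213.2 ± 46.7 against 134.0 ± 14.8 (log2 fold change 0.63, and 0.18 in a further probe set), Icam2, an adhesion molecule of resting endothelium, at 118.5 ± 4.7 against 77.2 ± 14.7 (0.60), and Tie1, a receptor kinase, at 97.5 ± 24.0 against 55.7 ± 10.8 (0.73). Vwf, the clotting factor stored by endothelium, had 293.2 ± 30.2 against 246.0 ± 12.1 (0.24), and Flt1, a VEGF receptor, had 131.9 ± 19.0 against 144.9 ± 17.8 (-0.13), while its other probe sets had 0.16 and 0.29. The diets did not overlap for 5 of the 20, with high fat above chow in each, where 6.26% of all probe sets lay so. In whole tissue, more cells of a type and more RNA per cell cannot be told apart.

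These 20 genes averaged a log2 deviation from the 6-array mean of 0.15, 0.24 and 0.00 on the 3 high fat arrays, in replicate order, and of -0.18, -0.09 and -0.12 on the 3 chow arrays. The same measure for Cldn5 was 0.42, 0.44 and 0.54 on high fat diet and -0.55, -0.31 and -0.55 on chow. High fat replicate 3 was highest for Cldn5 and lowest of its diet for the endothelial mean. After subtraction of the endothelial mean, Cldn5 was at 0.27, 0.21 and 0.54 on high fat diet and at -0.37, -0.22 and -0.43 on chow, a difference of 0.68 between the diets. Tjp1, which smooth muscle and other cells of the wall make too, was at -0.18, -0.72 and -0.16 on high fat diet after the same subtraction. On chow it was at 0.42, 0.39 and 0.26. This difference of -0.71 is wider than the -0.44 before subtraction because the endothelial mean was itself higher on high fat diet. For a gene made outside endothelium too, the subtraction is no correction for cell content. For Cdh5 the subtraction left 0.22 between the diets, and the diets overlapped. These values are descriptions, since Cldn5 was chosen for this contrast.

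**Figure D3:**
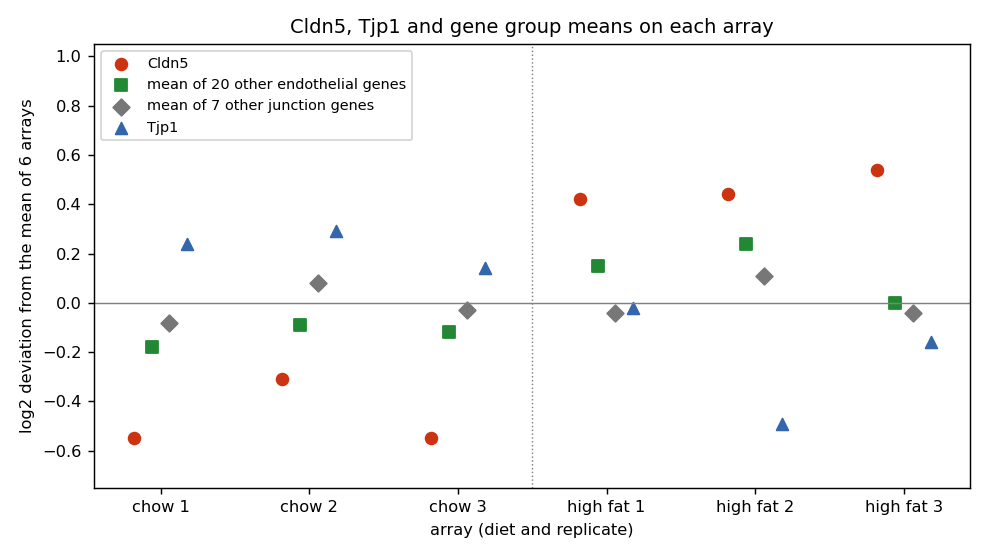
Log2 value relative to the 6-array average for Cldn5, Tjp1, the mean of 20 other endothelial genes and the mean of the 7 other junction genes above the limit; each point is 1 array. Cldn5 lay between 0.42 and 0.54 on high fat diet and between -0.55 and -0.31 on chow, while the mean of the other junction genes stayed between -0.08 and 0.11.

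Other genes of cell junctions were taken from lists by role, and a gene can be in more than 1 list. Of 21 claudins listed, 17 were on the array, and 14 of these had signals under 50 on all arrays. The claudins above the limit were Cldn3, Cldn10 and Cldn15. Cldn3 had 137, 151.4 and 110 on high fat diet and 72.3, 128 and 40.8 on chow by 1434651_a_at, with a log2 fold change of 0.80 ± 0.32 (unadjusted p = 0.0306, limma adjusted p = 0.649), and the diets overlapped. A further Cldn3 probe set had 0.58, and the others were under the limit. Cldn15 had 79.1 ± 13.6 against 79.0 ± 14.3, and Cldn10 had 46.2 ± 3.41 against 49.6 ± 1.01.

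Of the other tight junction proteins, 9 genes were above the limit, 5 with higher and 4 with lower means, and by limma none passed and none reached an unadjusted p of 0.05. Mpdz, a scaffold with many PDZ domains, had 332.3 ± 73.9 against 326.0 ± 25.4. Cgnl1, paracingulin, had 341.0 ± 35.9 against 306.1 ± 37.6. Of smallest p were Ybx3, which encodes a factor that binds Tjp1, at 204.5 ± 31.9 against 256.1 ± 23.0 (log2 fold change -0.32, and -0.27 in its other probe set), and Marveld1, a relative of occludin, at 2024.9 ± 761.2 against 2480.1 ± 333.4 (-0.35). The other Marveld1 probe sets had -0.05 and 0.48, so that its probe sets did not share a direction.

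Adherens junction genes above the limit numbered 15, of which 4 had higher and 11 lower means, with a median log2 fold change of -0.11. None passed in limma by any of their 27 probe sets, of which 4 had an unadjusted p under 0.05, against 7.03% of all probe sets. Ctnnb1, beta-catenin, which links cadherins to actin, had 2157.9 ± 207.8 against 2335.6 ± 109.4, a log2 fold change of -0.12, and its other probe sets had -0.37 and -0.19. Ptprb, the VE-PTP phosphatase bound to VE-cadherin, had 328.1 ± 66.9 against 251.1 ± 23.9 (0.36). Nectin2, an adhesion molecule, had 60.7 ± 6.55 against 39.8 ± 10.3 (0.56) in 1 probe set and 78.9 ± 8.15 against 74.7 ± 18.0 (0.09) in the brighter one. Actn1, alpha-actinin, had 1.19, -0.01 and -0.22 in its 3 probe sets.

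Connexins form gap junctions, and 3 were above the limit. Gja1 had 1106.1 ± 180.4 against 897.5 ± 72.1 (log2 fold change 0.29, and 0.00 to 0.33 in its other probe sets), Gja4 had 201.5 ± 33.5 against 170.3 ± 17.8 (0.23), and Gjc1 had 156.1 ± 20.7 against 191.8 ± 10.4 (-0.29). For Gjc1 every high fat pool was below every chow pool, as for 6.08% of all probe sets. By limma none passed and none reached an unadjusted p of 0.05. Of 11 other adhesion proteins of the endothelial border, 5 had higher and 6 lower means, and none passed. Only 1 of them, Icam2, had an unadjusted p under 0.05, where 7.03% of all probe sets did. It is the same probe set counted among the endothelial markers above. Cd34, a sialomucin of endothelium, had 575.2 ± 124.6 against 453.7 ± 21.2 (0.32).

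Regulators of endothelial junctions include transcription factors, receptor kinases and small GTPases. Of 22 genes above the limit, 12 had higher and 10 lower means, and none passed in limma, where 4 of their 40 probe sets had an unadjusted p under 0.05, against 7.03% of all probe sets. These 4 were of Tie1 (log2 fold change 0.73), Rock1 (-0.55), Arhgef12 (-0.52) and Rhoa (-0.52). Tek, Tie1, Kdr, Sox17, Sox18 and S1pr1 are also among the endothelial markers above, as are Ptprb and Cd34, so these lists are not independent. Sox18, a transcription factor of endothelium, had 194.8 ± 43.7 against 148.4 ± 34.3 (log2 fold change 0.38), and Sox17 had 92.4 ± 10.9 against 77.8 ± 4.67 (0.23). Foxo1, which can repress Cldn5 together with beta-catenin, had 408.9 ± 34.5 against 475.2 ± 36.7 (-0.21), and -0.20 and -0.01 in the other probe sets that were tested. Kdr, the main VEGF receptor of endothelium, had 166.4 ± 27.1 against 125.1 ± 13.5 (0.39), and Angpt2, a ligand that loosens junctions, had 174.8 ± 44.1 against 243.1 ± 60.3 (-0.46). Rock1, a kinase of actin contraction, had 435.3 ± 85.9 against 638.1 ± 108.7 (-0.55) in 1 probe set, against -0.03, -0.17 and -0.11 in the remaining 3. Sox17, Sox18, Foxo1, Kdr and Angpt2 were named for their role after their values were seen, as were Mpdz, Cgnl1, Ctnnb1, Ptprb, Gja4, Vwf and Flt1.

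**Figure D4:**
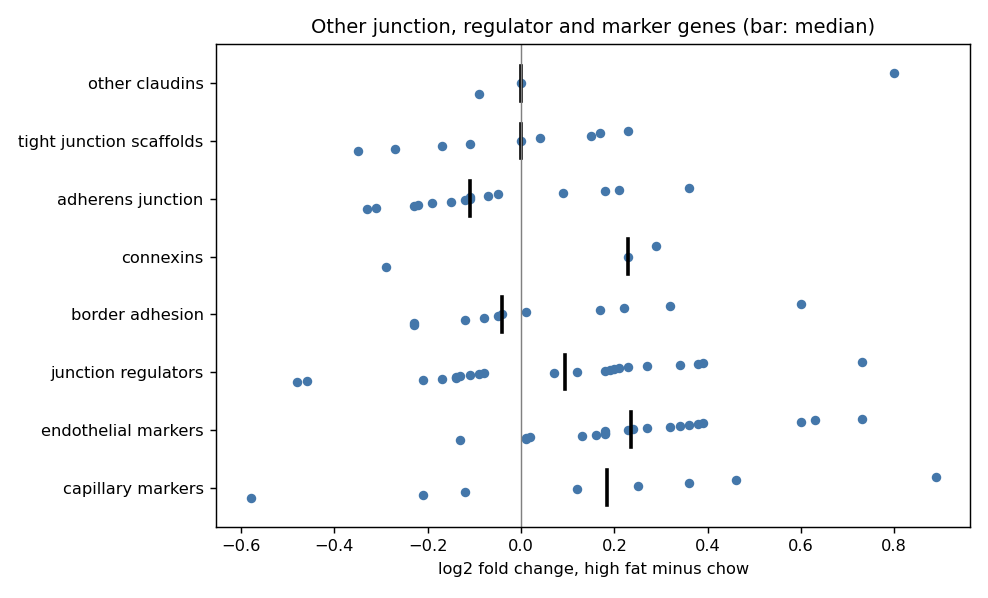
Log2 fold change of high fat minus chow for each gene above the limit in the lists of junction, regulator and marker genes (1 point per gene, its probe set of highest mean; the bar is the median). The endothelial markers had a median of 0.24 and the adherens junction genes a median of -0.11.

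Markers of other cells differed between the diets or between single arrays. The summed signal of 7 brown adipocyte markers lay between 10328 and 12535 on high fat diet and between 6717 and 8859 on chow, and that of 11 macrophage and myeloid markers between 3101 and 5292 and between 2372 and 3044. All 7 brown adipocyte genes and 10 of the 11 macrophage genes had higher means on high fat diet. Brown fat is rich in capillaries, and the 8 capillary markers had summed signals of 2724 to 3066 on high fat diet and 2925 to 3281 on chow, with Aqp1 the largest part of the sum. By gene, the mean was higher in the high fat group for 5 of the 8, and the median of their log2 fold changes was 0.18. The part of brown fat and of macrophages in the Cldn5 difference was not tested. Summed signals of 4 lymphatic markers were 528 to 782 and 575 to 688, of 3 platelet markers 575 to 711 and 540 to 716, and of 5 mesothelial and epithelial markers 479 to 860 and 485 to 683, which overlapped between the diets. Beside these, Prox1 of the lymphatic list, Gp9 of the platelet list, and Wt1, Epcam and Cdh1 of the mesothelial and epithelial list did not enter the sums, with signals under 50 on all arrays. Ppbp of the platelet list, at 25.3 ± 10.5 on high fat diet against 35.3 ± 30.6 on chow, did not enter either. Nor did Itgam and Aif1 (45.4 ± 3.71 against 24.8 ± 4.97) of the macrophage list, Zic1 of the brown adipocyte list and Myh7 of the cardiac list. Adipocyte markers summed to 9301 to 10306 on high fat diet and 9724 to 12886 on chow. Car3, at 2216.0 ± 401.7 against 4134.9 ± 372.8, makes up much of that sum, while the mean was higher in the high fat group for 5 of the 7 adipocyte genes (median log2 fold change 0.15). Retn, at 216.9 ± 1.31 against 464.0 ± 70.7 (-1.06), and a further Car3 probe set (-1.43) passed in limma, each at adjusted p = 0.0435. Over all probe sets tested, 0.0737% passed. Lep, at 78.1 ± 29.3 against 17.3 ± 10.3, did not pass the limit on low signals and did not enter the sum. Schwann cell markers summed to 1456 to 1838 and 1362 to 1637, of which Pmp22 is the largest part, and by gene the mean was higher in the high fat group for 4 of the 5 (median log2 fold change 0.38). In replicate order, the Schwann cell genes averaged log2 deviations of 0.28, 0.45 and -0.06 on high fat diet and of -0.31, -0.27 and -0.09 on chow, and S100b had 177.7 ± 43.8 against 71.9 ± 4.19. The part of Schwann cells in the Cldn5 difference was not tested.

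Of 13 cardiac markers, all 13 were higher in the mean on high fat diet, and their summed signal lay between 1185 and 8722 on high fat diet and between 1114 and 4468 on chow. In replicate order, they averaged log2 deviations of -1.15, 1.28 and 0.93 on high fat diet and of -0.16, 0.29 and -1.19 on chow. By the same measure, Cldn5 was at 0.42, 0.44 and 0.54 on high fat diet and at -0.55, -0.31 and -0.55 on chow. Cdh5, Esam and F11r were highest, and Tjp1 and Jam3 lowest, in high fat replicate 2. High fat replicate 3, with a cardiac deviation of 0.93, had 0.05 for Cdh5, -0.04 for Esam and 0.10 for F11r. High fat replicate 2 was also highest for the macrophage (0.61), mesothelial and epithelial (0.48) and Schwann cell (0.45) deviations. Its mean correlation with the other arrays was the lowest, at 0.945. The part of cardiac tissue, of other cells or of the array itself in the values of Cldn5 and of Cdh5, Esam, F11r, Tjp1 and Jam3 was not tested. The 10 smooth muscle markers had summed signals of 25686 to 26890 on high fat diet and 25098 to 31254 on chow. By gene, the mean was lower in the high fat group for 9 of the 10, with a median log2 fold change of -0.14, and none passed in limma. The part of smooth muscle in the Tjp1 values was not tested.

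**Figure D5:**
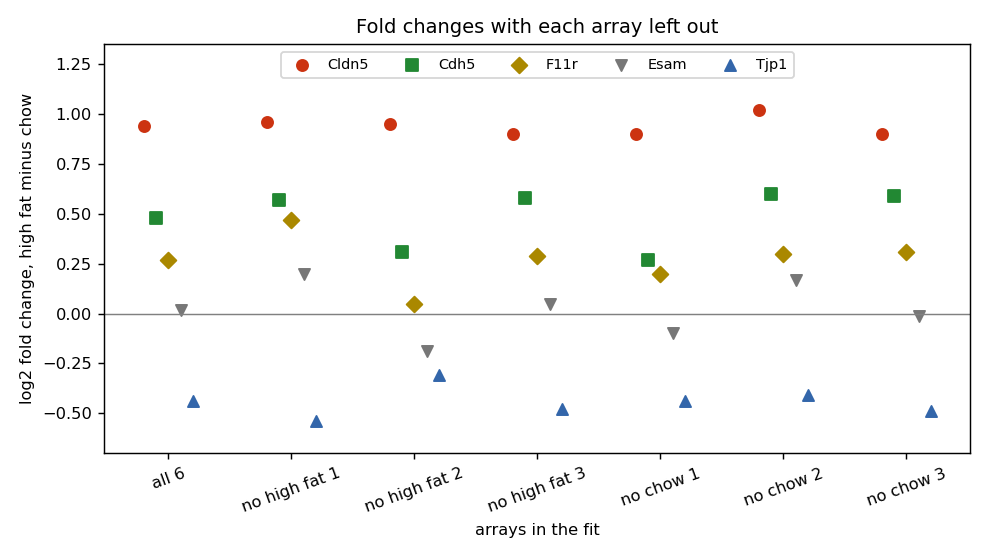
Log2 fold change of high fat minus chow for Cldn5, Cdh5, F11r, Esam and Tjp1 with all 6 arrays and with each array left out. Cldn5 stayed between 0.90 and 1.02, Cdh5 was at 0.27 without chow replicate 1, and F11r at 0.05 without high fat replicate 2.

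The genes whose pattern over the 6 arrays was most like that of Cldn5 were sought among 12488 probe sets with a single gene symbol, by the root mean square difference of log2 values after centring each on its own mean. Idh3a, a subunit of mitochondrial isocitrate dehydrogenase, was the closest at 0.141, by a probe set that can bind related transcripts. Its signals were 507.3, 566.6 and 521.8 on high fat diet and 263.5, 257.2 and 294.5 on chow. Atpaf2, an assembly factor of ATP synthase, Ampd3, an AMP deaminase, Pla2g7, a lipoprotein-associated phospholipase, and Abcg1, a sterol transporter, followed at 0.162, 0.164, 0.173 and 0.175. None of these 5 is a junction gene. Cdh5 was the closest of the other junction genes, at 0.353 and place 589, and Tjp1 was the farthest, at 0.707 and place 11544. Cldn5 was chosen for its diet difference on these same arrays, so the distance largely follows how near a gene's diet difference is to that of Cldn5. The 5 closest genes had log2 fold changes of 0.62 to 0.95, and Tjp1 had -0.44. The ranking is thus a description and no support for a link between the genes.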

How the data were processed

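RNA of 6 aorta pools was measured on Affymetrix arrays. The authors deposited linear intensities, a value for each probe set on each array, and MAS5 is named in the submitters' processing notes without its settings. The deposited scaling was kept. Of 22690 probe sets, 64 controls were left out, and 20380 of the rest had 1 gene symbol in the platform annotation, of which 20351 matched a current gene table.

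Signals were transformed as log2(signal + 6), the pseudocount being the 10th percentile of all signals. Probe sets with a mean above the 40th percentile were kept, 13575 in all, and limma 3.58.1 (R 4.3.3) gave two-sided tests of the diets from lmFit and eBayes with the trend option, adjusted by Benjamini-Hochberg over all of them. The steps were tested on simulated data. Where a gene had several probe sets, the 1 of highest mean stood for it in lists. Named genes were all members, then in each list those past the threshold or the 2 of smallest p, and the 5 closest to Cldn5. For marker lists other than endothelium, sums, counts, medians or deviations are given. Genes of these lists were named only where they dominate or are left out of a sum or passed the threshold. Ucp1, Adipoq and S100b were named besides, and all of these after their values were seen. Members and lists were chosen with earlier results of these data known. Alternatives were pseudocounts of 1 and 20, other filters, normalizations and variance models, array weights, a block for the replicate number, and each array left out. Python 3.11.15 made tables and figures.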

Additional observations from a re-analysis of the deposited data

How the results depend on the processing

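Cldn5 was left out of the counts of tested probe sets, and 0 of the other junction probe sets passed under any of 17 alternatives. The Cldn5 difference kept its direction in the 16 that gave it a value. Cdh5, F11r, Tjp1, Pecam1, Jam3 and the Jam2 probe set 1449408_at kept theirs in each setting that gave a value. Esam, at 0.02 with all arrays, was at -0.02 with equal medians, -0.10 with array weights and -0.19 to 0.20 with single arrays left out, and the Jam2 probe set 1419288_at, at -0.09, ranged from -0.19 to 0.03 with arrays left out. The median of the junction genes other than Cldn5, 0.02, was -0.06 with the filter at the 60th percentile, which tests fewer genes, -0.10 with array weights, and -0.05 to 0.16 with arrays left out, the highest without chow replicate 2; the cause was not tested. Over the whole table, 10 probe sets passed, against 6 with no filter, 5 with no variance trend, 6 with a gene's probe sets averaged, and 5 to 16 with arrays left out (16 when high fat replicate 1 was left out, and 5 when high fat replicate 2 or chow replicate 2 was). With the replicate number as a block 5 passed over the whole table and 0 of the junction probe sets. Deviations of arrays with the same number had correlations (r) of 0.03, 0.17 and -0.11 for replicates 1, 2 and 3. Not every array correlated best with its own number, and the numbers were not used as pairs in the main fit. With 3 arrays per diet, these correlations cannot exclude steps shared by arrays of the same number. Low signals, those of Ocln and most claudins among them, limit what can be compared, as does the number of arrays.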
